A study of Mus musculus with 6 samples.

Results

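Voltage-gated sodium and calcium channel genes were described in messenger RNA of the core of the mouse nucleus accumbens, which belongs to the ventral striatum and is known for its role in reward and motivation. The genes were chosen by a symbol rule that uses none of their values, although earlier results of these data were known. They are pore-forming subunits of sodium channels (Scn followed by a number and a), sodium channel beta subunits (Scn followed by a number and b), pore-forming alpha1 subunits of calcium channels (Cacna1a to Cacna1i and Cacna1s), and the auxiliary alpha2delta (Cacna2d1 to Cacna2d4) and beta (Cacnb1 to Cacnb4) subunits. The rule found 32 of the 24532 genes in the deposited table, in 84 of its 36780 transcripts. They comprised 10 sodium alpha, 4 sodium beta, 10 calcium alpha1, 4 calcium alpha2delta and 4 calcium beta genes. The transcript listed under the older symbol Scn2a1 carried the gene identifier of Scn2a and was summed with it.

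The samples were 3 titled control and 3 titled ethanol, from wild-type adolescent male mice with ages given as postnatal days 35 to 55, whose strain was not in the labels. The series text describes, for the mice as a whole, contextual fear conditioning, a day of binge-like injections, extinction trials and a drinking assay on alternate days that lasted 27 days, with tissue taken 24 h after the last of these. The injection protocol, printed for control and ethanol samples alike, consisted of 20% v/v ethanol in saline given intraperitoneally 6 times within 6 h, at 1.8 g/kg for the opening dose and 1.2 g/kg for each of the 5 later doses. What the control mice received was not stated separately, the treatment field read ethanol exposure for every sample, and the groups therefore rest on the titles. Whether each sample came from its own animal is not in the labels. The p-values therefore refer to the spread among the samples, part or all of which may be technical. The comparison asks which transcripts differed between the 2 groups after the drinking period.

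Voltage-gated sodium channels open when the membrane depolarizes and carry the rising phase of the action potential. Their alpha subunit forms the pore, and beta subunits, which are also cell adhesion molecules, set its gating and placement. Voltage-gated calcium channels turn depolarization into calcium entry, which drives transmitter release through the P/Q and N types (Cacna1a, Cacna1b), signals to the nucleus through the L types (Cacna1c, Cacna1d) and supports low-threshold firing through the T types (Cacna1g, Cacna1h, Cacna1i). The alpha2delta and beta subunits bring the calcium channel pore to the membrane. In medium spiny neurons, the projection neurons of the striatum, these currents shape the step from a silent resting state to firing, and the beta4 subunit of sodium channels is known to be abundant there.

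The libraries held 35898026 to 67399599 estimated reads. Levels below are CPM (reads of a gene per 1000000 reads of the library, scaled between libraries by edgeR's TMM factors), in which 3 reads stand for 0.0478 to 0.0820 CPM as far as counting error goes. Levels are compared between genes only per transcript length, as FPKM summed over a gene's transcripts. Markers of medium spiny neurons were present in every library (12 of 12 genes, 1922 to 2304 CPM summed in control and 2048 to 3955 in ethanol). The cortical marker gene Slc17a7, a vesicular glutamate transporter, stood at 288.6, 58.2 and 102 CPM in control 1 to 3 and at 24.7, 9.42 and 55.95 CPM in ethanol 1 to 3. The 10 cortical glutamatergic markers together ranged from 138 to 429 CPM in control and from 60.55 to 141.5 CPM in ethanol, with 1 of them at 0 in a library and 8 of the 9 tested below 0 in log2 fold change. Of the 12 medium spiny neuron markers 11 were above 0, with a median log2 fold change of 0.38. Other cell types leaned to a side too, with 7 of 8 astrocyte and 5 of 6 microglia markers above 0 (medians 0.25 and 0.27). Above 0 were also 2 of 8 oligodendrocyte and 0 of 6 meningeal fibroblast markers (medians -0.19 and -0.45). Interneuron, oligodendrocyte precursor, and endothelial and mural markers had 5 of 8, 3 of 6 and 3 of 8 above 0. Choroid plexus markers summed to between 12.4 and 412.5 CPM in control and between 14.0 and 16.6 CPM in ethanol, and the high value was the transthyretin gene Ttr in control 3 (394 CPM, against 4.63 and 2.18 CPM in control 1 and 2). The part of these cell markers in the results on channel genes was not tested, and in bulk tissue fewer cells of a type and less RNA per cell cannot be told apart.

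**Figure D1:**
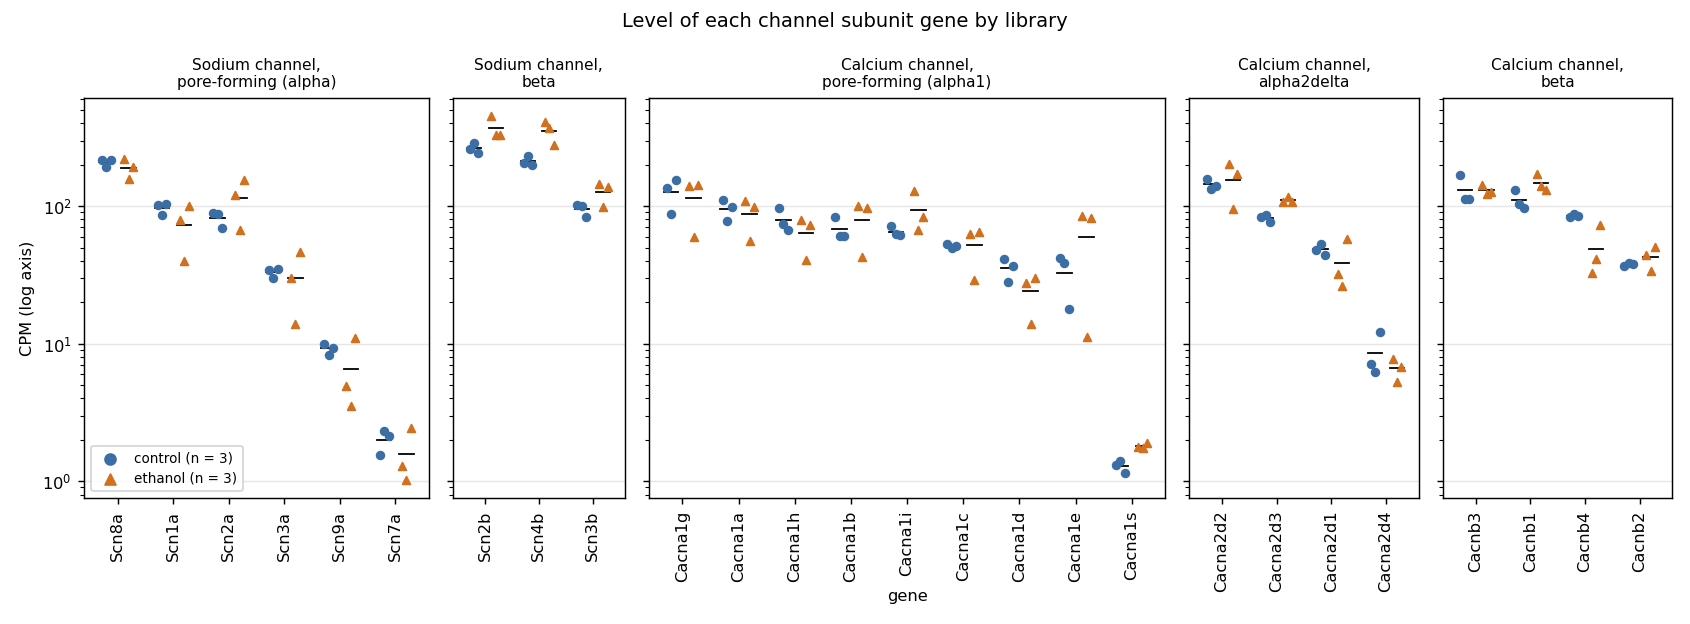
CPM of 26 channel subunit genes that reached 1 CPM in a library (log axis), by subunit class; circles are the 3 control and triangles the 3 ethanol libraries, and short lines are group means. Most genes overlap between groups, Scn4b, Scn2b, Cacna2d3 and the low-count Cacna1s lie higher in all 3 ethanol libraries, and Cacnb4 lies lower.

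Per transcript length, the beta subunit genes Scn2b and Scn4b stood above the sodium channel pores, with means in control and ethanol of 49.5 ± 4.64 and 63.9 ± 9.77 FPKM for Scn2b (SD, n = 3 each) and of 42.8 ± 4.13 and 65.5 ± 9.79 FPKM for Scn4b. Summed over a class, control libraries averaged 87.9, 48.1 and 52.4 FPKM for calcium beta, alpha2delta and alpha1 genes. Scn8a, the Nav1.6 pore of the axon initial segment, was the most abundant sodium pore at 15.8 ± 0.88 FPKM in control, and Cacna1g, a T-type pore, the most abundant calcium pore at 13.1 ± 3.54 FPKM. Cacna2d2 (22.3 ± 1.95 FPKM) and Cacna2d3 (19.0 ± 1.22 FPKM) were near each other at the top of their class, and Cacnb3 (42.1 ± 10.4 FPKM) led the calcium beta genes.

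Few reads were found for 6 genes known mainly from other tissues. Scn4a, the pore of skeletal muscle, had 2 to 24 reads per library, Scn10a and Scn11a, pores of sensory neurons, had 0 to 35 and 0 to 28 reads, and Cacna1f, the retinal L-type pore, had 0 to 26 reads. Cacna1s, the L-type pore of skeletal muscle, had 42 to 111 reads and Scn7a, a sodium-sensing relative of the family, had 42 to 91. Scn4a and Cacna1f did not reach the minimum count for testing, which left 30 genes. The muscle marker genes were low as well, at 9.34 to 15.1 CPM summed over 8 genes.

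None of the 30 tested genes passed at an adjusted p of 0.05 by edgeR's quasi-likelihood test with Benjamini-Hochberg adjustment over all 15774 genes tested, where the percentage of all genes called was 0.0%. Among the channel genes 16 had a log2 fold change (ethanol minus control) above 0 and 14 below, with a median of 0.028 against 0.021 over all genes. At an unadjusted p under 0.05 there were 6 of the 30, 5 higher and 1 lower in ethanol, where this held for 10.7% of all genes (5.31% higher and 5.34% lower). All ethanol libraries lay above all controls in 4 members (9.35% of all genes) and below them in 1 (8.41%), which is close to the background. limma-voom called 0 and had 6 at an unadjusted p under 0.05 (11.1% of all genes). DESeq2 called 1 (0.913% of all genes) and had 8 (12.2% of all genes). The 12 auxiliary subunit genes held 5 of the 6 in the edgeR fit, and the 18 tested pore genes held 1. After removal of each library's length trend, described below, 6 auxiliary and 5 pore genes were at an unadjusted p under 0.05 by edgeR (17.0% of all genes). The split between auxiliary and pore genes thus moved with the treatment of transcript length.

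**Figure D2:**
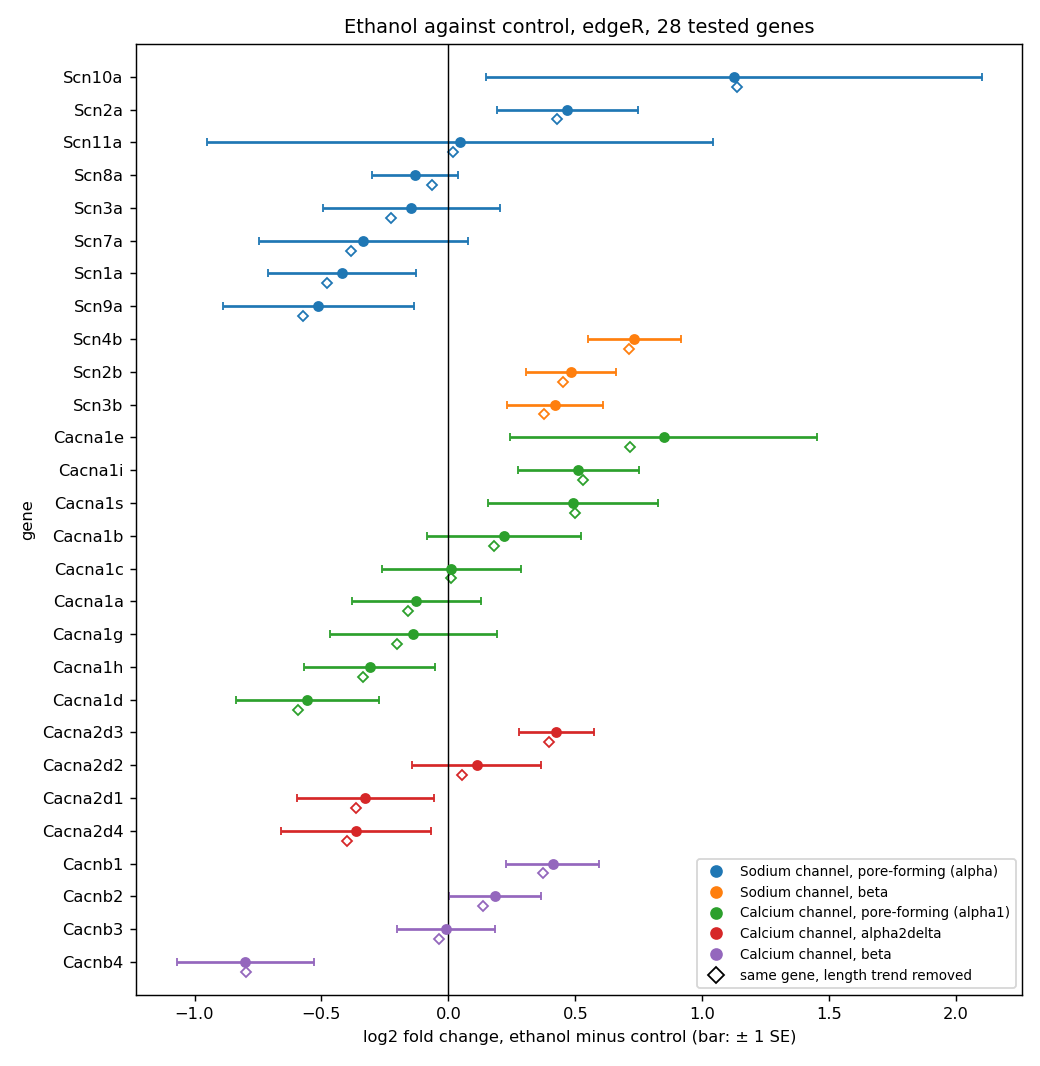
Log2 fold change of ethanol minus control (x axis, filled points with a bar of 1 SE on each side) for 28 of the tested genes by edgeR, colored by class; open diamonds are the same fold change after removal of each library's transcript-length trend. Scn4b (0.73) and Cacnb4 (-0.80) lie farthest from 0 in units of their SE, and the open diamonds fall close to the filled points.

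Among the sodium beta subunits, Scn4b, Scn2b and Scn3b stood higher in ethanol on average. Scn4b, whose subunit is linked to the alpha subunit by a disulfide bond and takes part in resurgent sodium current, stood at 205.9, 232.9 and 198 CPM in control and 411, 369 and 278 CPM in ethanol. Every ethanol library lay above every control library, with a log2 fold change of 0.73 (SE 0.18, adjusted p = 0.419 by edgeR's quasi-likelihood test). DESeq2 called Scn4b with an adjusted p of 0.035, and its adjusted p ranged from 0.035 to 0.933 over the alternative fits. Leaving out 1 library at a time gave fold changes from 0.61 to 0.88 on the log2 scale. Scn2b, the other disulfide-linked beta subunit, stood at 261, 288 and 244 CPM in control and 452, 329 and 327 CPM in ethanol, again with no overlap. Its log2 fold change was 0.48 (SE 0.18), and 0.31 without ethanol 1.

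Scn3b, a beta subunit that binds without a covalent link, stood at 103, 100.4 and 83.1 CPM in control and 145, 99.4 and 138 CPM in ethanol. Ethanol 2 lay within the control range, and the log2 fold change was 0.42 (SE 0.19).

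Scn2b and Scn4b are next to each other on chromosome 9 of the mm10 build, at 45117876 to 45130070 and 45139042 to 45154061, with 8971 bases and no other listed gene between them. The gene model Gm10684 overlaps Scn2b in the table and had at most 0.629 CPM. Scn3b lies 4826257 bases before Scn2b. The 250 bases before the RefSeq start site (GRCm38.p6, 5′ to 3′, CG pairs in capitals) are printed for Scn2b, Scn4b and Cacna2d3, the well-detected members with every ethanol library above every control library, so that the neighbouring pair can be compared with an unlinked gene. The RefSeq start of Scn4b lies before the start in the deposited table. RefSeq windows were matched for 24 of the 32 members.
Scn2b (chr9:45117626-45117875, plus strand): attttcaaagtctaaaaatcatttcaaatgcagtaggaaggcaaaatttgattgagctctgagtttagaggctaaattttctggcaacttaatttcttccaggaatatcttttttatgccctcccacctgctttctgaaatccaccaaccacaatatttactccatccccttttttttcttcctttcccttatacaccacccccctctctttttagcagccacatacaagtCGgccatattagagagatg
Scn4b (chr9:45138374-45138623, plus strand): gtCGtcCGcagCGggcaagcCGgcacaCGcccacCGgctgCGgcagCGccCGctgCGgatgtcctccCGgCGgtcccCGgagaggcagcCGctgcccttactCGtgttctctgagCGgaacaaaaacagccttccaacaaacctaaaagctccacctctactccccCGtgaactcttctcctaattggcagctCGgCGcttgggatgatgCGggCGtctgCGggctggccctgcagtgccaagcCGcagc
Cacna2d3 (chr14:29721865-29722114, minus strand): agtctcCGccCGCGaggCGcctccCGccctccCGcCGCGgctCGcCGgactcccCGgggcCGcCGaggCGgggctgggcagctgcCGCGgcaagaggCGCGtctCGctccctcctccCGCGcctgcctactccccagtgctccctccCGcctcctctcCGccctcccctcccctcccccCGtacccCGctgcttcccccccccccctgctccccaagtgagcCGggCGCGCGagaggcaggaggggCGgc

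The window of Scn2b had 1 CG pair and 38.4% G and C, and at least 1 CG pair was found in 92.1% of the 32851 windows. Scn4b had 23 CG pairs and 66.0% G and C, and 13.3% of all windows held as many or more. Cacna2d3 had 30 CG pairs and 80.0% G and C, and 5.94% of all windows held as many or more. The Sp1 box GGGCGG, on either strand, was found at 4 positions before Cacna2d3 and at 0 before Scn2b and Scn4b, while 32.7% of all windows and 13 of the 34 windows of the matched members held it. The neighbours Scn2b and Scn4b thus have unlike sequence before their starts. A match of letters is a description and not a binding site.

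Of the sodium channel pores, Scn2a stood higher in ethanol on average and Scn1a lower. Scn2a, the Nav1.2 pore of axons and dendrites, stood at 89.8, 87.7 and 69.8 CPM in control and 119.6, 67.15 and 155.7 CPM in ethanol. Here ethanol 2 was the lowest of the 6 libraries, and the log2 fold change of 0.47 (SE 0.28) was 0.73 without ethanol 2 and 0.18 without ethanol 3.

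Scn1a, the Nav1.1 pore that is prominent in fast-spiking interneurons, stood at 103, 86.6 and 104 CPM in control and 79.0, 39.9 and 101 CPM in ethanol, with overlap and a log2 fold change of -0.42 (SE 0.29). Without ethanol 2 this was -0.13 and without ethanol 3 it was -0.71. Pvalb, the marker of such interneurons, stood at 118, 174 and 332 CPM in control and 121.5, 237 and 122.5 CPM in ethanol, so it overlapped between groups too. Scn8a, the Nav1.6 pore, stood at 215, 194 and 217.5 CPM in control and 221, 159 and 192 CPM in ethanol (log2 fold change -0.13, SE 0.17), and the difference ranged from -0.25 without ethanol 1 to -0.027 without ethanol 2. Scn3a, a pore known mainly from the developing brain, and Scn9a, best known from sensory and sympathetic neurons, stood at log2 fold changes of -0.15 (SE 0.35) and of -0.51 (SE 0.38). Scn3a turned to 0.19 without ethanol 2 and was -0.59 without ethanol 3, and Scn9a was -1.12 without ethanol 3 and -0.23 without ethanol 2. Scn9a is overlapped by Gm13629, which had up to 5.195 CPM. The low-count pores had log2 fold changes of -0.34 (Scn7a), 1.13 (Scn10a) and 0.045 (Scn11a), with standard errors of 0.41, 0.98 and 0.996. Scn7a was -0.78 without ethanol 3 and -0.11 without ethanol 2, Scn10a was 3.03 without control 1 and 0.57 without control 2, and Scn11a ranged from -0.53 without control 2 to 0.82 without control 3. Scn10a and Scn11a had 0 reads in control 2.

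Ratios within a library do not depend on the scaling between libraries. The ratio of Scn2a to Scn1a, in FPKM, was 0.824, 0.943 and 0.625 in control 1 to 3 and 1.41, 1.58 and 1.44 in ethanol 1 to 3. By FPKM, Scn1a was thus the more abundant of the pair in all 3 control libraries and Scn2a in all 3 ethanol libraries. In control 2 the pair was close, at 8.98 FPKM for Scn1a and 8.48 FPKM for Scn2a. The ratio of Cacna2d3 to Cacna2d1 was 3.51, 3.30 and 3.51 in control and 6.76, 8.94 and 3.75 in ethanol, and that of Cacnb4 to Cacnb1 was 0.2625, 0.354 and 0.374 in control and 0.080, 0.124 and 0.230 in ethanol. None of these 3 ratios overlapped between groups. They were picked after the values were seen and carry no test, and with 3 against 3 samples an exact permutation test cannot go below a two-sided p of 0.1. Scn1a and Scn2a lie in a cluster on chromosome 2 with Scn3a, Scn9a and Scn7a, from 65457118 to 66784910, and their longest transcripts have similar lengths of 8320 and 8937 bases. The other ratios set unlike lengths against each other, 3695 and 7472 bases for Cacna2d3 and Cacna2d1 and 8088 and 3524 bases for Cacnb4 and Cacnb1. They can therefore carry a library's length trend, described below, and its part in them was not tested.

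**Figure D3:**
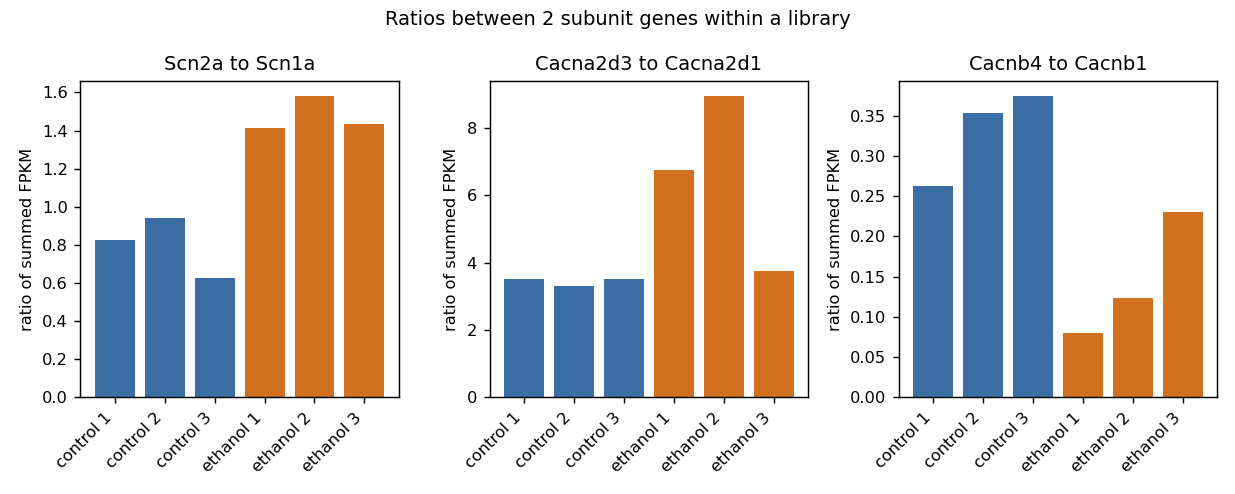
Ratio of the summed FPKM of 2 genes in each library (y axes start at 0), control libraries in blue and ethanol libraries in orange. Scn2a to Scn1a is below 1 in each control library and above 1 in each ethanol library; Cacna2d3 to Cacna2d1 is higher and Cacnb4 to Cacnb1 lower in each ethanol library.

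Among the calcium channel pores, Cacna1i and Cacna1e stood higher in ethanol on average and Cacna1d lower, with overlap between groups in each. Cacna1i, a T-type pore, stood at 71.8, 62.4 and 62.0 CPM in control and 129, 66.8 and 83.7 CPM in ethanol (log2 fold change 0.51, SE 0.24), which was 0.20 without ethanol 1. Cacna1d, the L-type pore Cav1.3 that opens at comparatively negative potentials, stood at 41.2, 28.0 and 36.8 CPM in control and 27.8, 14.0 and 30.3 CPM in ethanol (log2 fold change -0.56, SE 0.28), which was -0.29 without ethanol 2. Its share of the summed alpha1 FPKM was 6.38, 5.87 and 6.50% in control and 3.86, 4.32 and 4.58% in ethanol, with no overlap. The genes Chdh and Dcp1a overlap the Cacna1d locus in the table with up to 16.3 and 23.3 CPM. Cacna1e, the R-type pore, varied widely between libraries, with 42.1, 38.7 and 17.9 CPM in control and 84.9, 11.2 and 81.8 CPM in ethanol. Its log2 fold change of 0.85 had an SE of 0.61 and was 1.33 without ethanol 2 and 0.497 without ethanol 1.

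The release-site pores Cacna1a (P/Q type) and Cacna1b (N type) differed between groups by -0.13 (SE 0.25) and by 0.22 (SE 0.30) on the log2 scale. Cacna1a ranged from -0.32 without ethanol 1 to 0.10 without ethanol 2, and Cacna1b from 0.030 without ethanol 1 to 0.51 without ethanol 2. Cacna1c, the L-type pore Cav1.2, had a log2 fold change of 0.012 (SE 0.27). Its values were 49.2 to 53.5 CPM in control, but 62.5, 28.9 and 64.35 CPM in ethanol. The T-type pores Cacna1g and Cacna1h differed by -0.14 (SE 0.33) and by -0.31 (SE 0.26) on that scale, and Cacna1g stood at 135.5, 87.1 and 156 CPM in control and 140.4, 60.0 and 144 CPM in ethanol. Cacna1g turned to 0.035 without control 3 and to 0.16 without ethanol 2, and was -0.34 without control 2. Cacna1h was -0.081 without ethanol 2 and -0.49 without ethanol 1. Cacna1s, at 1.30, 1.40 and 1.15 CPM in control and 1.77, 1.75 and 1.91 CPM in ethanol, did not overlap between groups, at 42 to 111 reads per library (log2 fold change 0.49, SE 0.33).

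Among the alpha2delta subunits, which are the targets of gabapentinoid drugs in the case of Cacna2d1 and Cacna2d2, Cacna2d3 stood higher in ethanol. It had 83.7, 85.9 and 77.2 CPM in control and 107.3, 117 and 107.3 CPM in ethanol, with no overlap and little spread within groups. The log2 fold change was 0.42 (SE 0.15, adjusted p = 0.439 by edgeR's quasi-likelihood test), and from 0.37 to 0.46 with 1 library left out at a time. Cacna2d2 stood at 158, 133 and 141 CPM in control and 202, 94.8 and 170.4 CPM in ethanol, so that ethanol held both the highest and the lowest library (log2 fold change 0.11, SE 0.25, from -0.12 without ethanol 1 to 0.36 without ethanol 2). Cacna2d1 had a log2 fold change of -0.33 (SE 0.27), which was -0.73 without ethanol 3, -0.13 without ethanol 2 and -0.21 without ethanol 1. Cacna2d4, a subunit of retinal synapses, had -0.36 (SE 0.30) at 217 to 485 reads per library and -0.012 without control 3. The gene Lrtm2 lies inside its locus with up to 126 CPM, and whether counting used strand was not given in the sources used here.

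Among the calcium channel beta subunits, which bind the alpha1 pore inside the cell, Cacnb4 stood lower and Cacnb1 higher in ethanol. Cacnb4, whose loss causes the ataxia and seizures of the lethargic mouse, stood at 82.9, 88.1 and 85.1 CPM in control and 32.8, 41.3 and 73.1 CPM in ethanol. All 3 ethanol libraries lay below the controls, which hardly differed from each other, while ethanol 3 lay nearest to them. The log2 fold change was -0.80 (SE 0.27, adjusted p = 0.439 by edgeR's quasi-likelihood test), and it was -1.20 without ethanol 3 and -0.58 without ethanol 1. Cacnb1 stood at 131.9, 104 and 97.0 CPM in control and 171, 139 and 131.8 CPM in ethanol, where the highest control and the lowest ethanol library were almost equal (log2 fold change 0.41, SE 0.18). Cacnb3 stood at 167, 113.4 and 113.5 CPM in control and 142, 122 and 128 CPM in ethanol, with a log2 fold change of -0.0097 (SE 0.19). Cacnb2 had 0.18 (SE 0.18), which was 0.049 without ethanol 3 and 0.32 without ethanol 2. In shares of the class, Cacnb1 held 32.1, 33.4 and 31.3% of the summed beta FPKM in control and 42.4, 41.3 and 36.3% in ethanol, and Cacnb4 8.44, 11.8 and 11.7% in control and 3.40, 5.12 and 8.35% in ethanol. Like the ratio of Cacnb4 to Cacnb1, these shares set unlike transcript lengths against each other. They can carry a library's length trend, whose part in them was not tested.

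The channel genes have long transcripts, and 1 ethanol library was low in long transcripts generally. The longest transcript had a median of 8387.5 bases in the pore genes and 4242.5 in the auxiliary genes, against 2879 over all tested genes. Ethanol 2 was the lowest of the 6 libraries in 17 of the 30 tested members, and in 16 of the 22 with a transcript of at least 5000 bases. Over all tested genes this held for 23.9%, and for 59.8% of those with a transcript of at least 5000 bases. The all-gene trend of ethanol 2 stood 0.44 below the mean of the libraries (log2) at 8000 bases and 0.35 above it at 1000 bases. At 8000 bases ethanol 1 and ethanol 3 stood 0.16 and 0.26 above that mean and the controls within 0.05 of it. At 1000 bases ethanol 1 and ethanol 3 stood at -0.26 and -0.218, and control 1 to 3 at -0.018, 0.031 and 0.156. In ethanol 2 the members of at least 5000 bases had a median deviation of -0.64, against -0.36 for all genes of at least 5000 bases. The trend of ethanol 2 kept falling with length, from -0.14 at 4000 bases to -0.44 at 8000 bases. Members and all genes of at least 5000 bases were not matched in length within that range, which limits both comparisons.

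**Figure D4:**
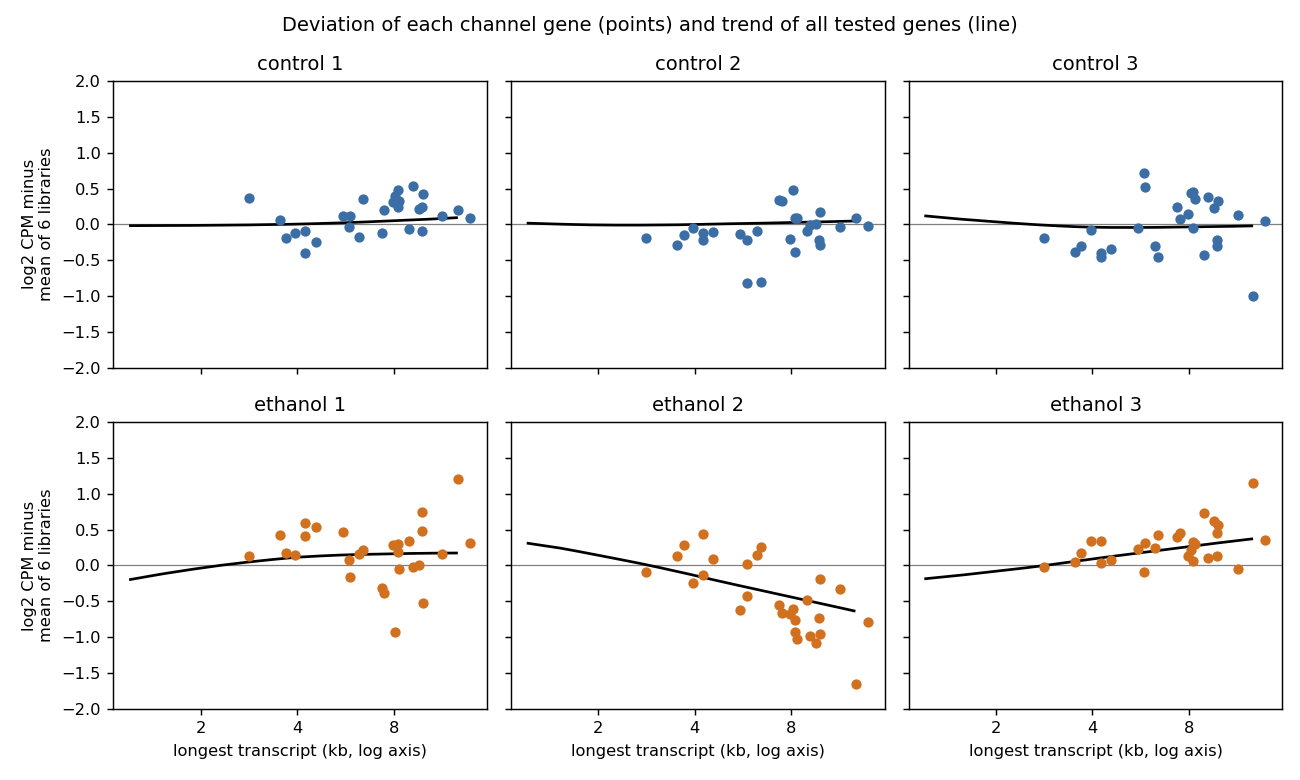
For each library, log2 CPM minus the mean of the 6 libraries (y axis) against the length of the longest transcript (x axis, log scale). Points are 28 of the tested channel genes, as log2(CPM + 0.5). The line is the trend over all tested genes, fitted on edgeR's log2 CPM, with a different small count added before the logarithm. In ethanol 2 the trend falls from 0.14 at 2000 bases to -0.44 at 8000 bases, with long channel genes on both sides of it (Cacna1e at -1.66, Cacna1i at -0.19 and Cacna1s at 0.15).

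After removal of each library's length trend, the fold changes of all 30 tested members kept their direction. At an unadjusted p under 0.05 there were then 11 of the 30 members, 8 higher and 3 lower in ethanol, where this held for 17.0% of all genes. Among them were Scn4b, Scn2b, Scn3b, Scn2a, Cacna1i, Cacna2d3 and Cacnb1 with higher and Cacna1d, Cacnb4 and Scn1a with lower values. None passed after adjustment, and the smallest adjusted p among them was 0.187 (Scn4b, edgeR's quasi-likelihood test). Without ethanol 2 altogether all 32 members were tested, and 12 were at an unadjusted p under 0.05 (22.9% of all 15920 genes tested). Of these 11 were higher and 1 lower in ethanol, and 0 passed after adjustment by edgeR's quasi-likelihood test. In that fit Cacna1e had a log2 fold change of 1.33, Scn2a 0.73, Cacna1i and Scn4b 0.69 each, and Cacnb4 -0.70.

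Of the 32 genes, 21 had more than 1 transcript in the table, and the split of their estimated reads was unstable. In 19 transcripts of 8 genes, 0 reads were listed in at least 1 library and 500 or more in another. For Cacna2d1, variant a held 98.9, 100 and 95.3% of the gene's reads in control, 95.5% in ethanol 2, and 0 and 0.047% in ethanol 1 and ethanol 3, where variant b held 92.7 and 93.3%. Scn1a variant 1 held 41.0, 98.98 and 100% in control and 8.41, 0 and 5.71% in ethanol. Scn8a variant 1 held 62.8, 96.8 and 48.0% in control and 21.1, 55.7 and 23.9% in ethanol. Scn2a variant 2 held 0, 100 and 83.2% in control and 57.4, 0 and 92.7% in ethanol, so that its libraries disagreed within both groups. Variants of a gene share most of their sequence, so these splits are estimates with no stated error. Tested as single transcripts, 0 of 60 member transcripts passed (smallest adjusted p = 0.712 by edgeR's quasi-likelihood test) and 7 were at an unadjusted p under 0.05, where this held for 6.55% of all 22527 transcripts. Scn4b, Scn2b and Cacna2d3 have 1 transcript each, so their values do not rest on such a split.

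**Figure D5:**
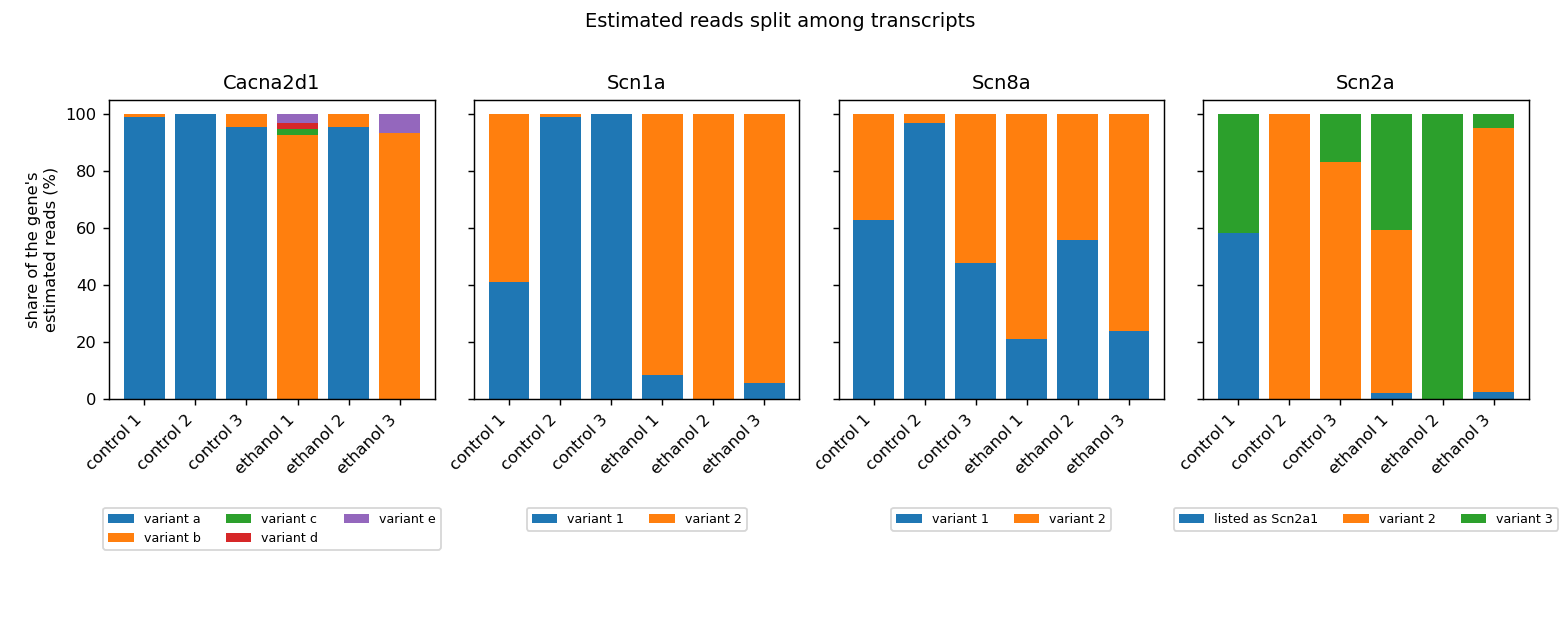
Share of each gene's estimated reads given to each listed transcript variant, in percent, by library. Cacna2d1 goes almost wholly to variant a or to variant b depending on the library, and Scn1a goes mostly to variant 2 in the 3 ethanol libraries.

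Related genes were described from lists of partners and relatives, not all of which are parts of these channel complexes. In the gamma subunit family (Cacng1 to Cacng8), which includes auxiliary subunits of AMPA receptors, 7 of 7 tested genes had positive log2 fold changes with a median of 0.27. Cacng4 led with control and ethanol means of 12.3 ± 1.02 and 24.6 ± 6.99 CPM (SD, n = 3 each, and so for the genes that follow), and Cacng8 came next at 28.7 ± 5.05 and 36.4 ± 7.77 CPM. Fibroblast growth factor homologous factors, which bind the tail of sodium channel pores, had 1 gene above and 3 below 0 (median -0.16), led by Fgf12 at 121 ± 2.89 and 86.7 ± 24.3 CPM and Fgf11 at 47.8 ± 0.92 and 40.2 ± 4.09 CPM. For the axon initial segment and node scaffold, 5 of 8 genes were above 0 (median 0.18). Its ankyrin-G gene Ank3, the anchor of sodium channels, stood at 268 ± 10.7 and 216 ± 46.4 CPM, and the adhesion molecule gene Nrcam at 108 ± 9.96 and 151 ± 40.8 CPM. The sodium leak channel complex had 1 of 4 genes above 0 (median -0.071), with Nalcn, its pore, at 64.6 ± 7.20 and 82.1 ± 20.4 CPM and Unc80 at 162 ± 10.4 and 144 ± 63.4 CPM. Of 16 calcium channel regulators 8 were above 0 (median -0.011), and Cbarp, which inhibits calcium channels through their beta subunits, stood at 400.3 ± 46.2 and 563 ± 100.5 CPM. Stac3, an adaptor of the muscle channel, stood at 2.27 ± 1.05 and 0.88 ± 0.41 CPM. No gene of these lists passed after adjustment by edgeR's quasi-likelihood test, and the genes at an unadjusted p under 0.05 were 1 of 7 in the gamma family, 1 of 4 growth factor homologues, 3 of 16 regulators and 0 in the other lists, where this held for 10.7% of all genes.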

How the data were processed

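Messenger RNA of the nucleus accumbens core was sequenced in 6 samples, 3 in each group by title. Per the file headers the authors deposited 1 table with an estimated count and an FPKM value per transcript and sample. The deposited estimated counts are whole numbers that equal FPKM times length times a fitted library size, rounded up, within 0.05 reads for 99.9 to 100% of the transcripts checked per library. That library size was fitted from the same counts on the assumption of rounding up, so the check is not independent of them. The build mm10 and bcl2fastq are named per the submitters' processing notes, and the aligner, the counter and the use of strand were not given in the sources used here.

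Counts were summed by gene identifier and tested with edgeR 4.0.16 (R 4.3.3): filterByExpr with a minimum count of 10, TMM scaling, the two-sided quasi-likelihood test and Benjamini-Hochberg adjustment over all genes tested, at a threshold of 0.05. Standard errors are the size of the log2 fold change divided by the square root of the F statistic. Rounding and estimation error in the counts are not part of that model. Alternatives were DESeq2 1.42.0, limma-voom (limma 3.58.1), other scalings, no filter, a replicate block, a loess length trend (span 0.5) taken out as an offset, and each library left out in turn. The scripts were tested on simulated data. FPKM was summed over a gene's transcripts. Figures were drawn with matplotlib 3.10.9. Start sites and sequences are from RefSeq on GRCm38.p6.

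All genes matching the symbol rule were described, with values per library for the 12 members of smallest unadjusted p and the most abundant member of each class, and with the 2 members of smallest p in each list of partners. Cacna1e, Cacna1c, Slc17a7 and Pvalb, and the ratios and shares, were picked after their values were seen. The genes shown as examples of transcript splits were not chosen by a rule set beforehand. The members and lists were chosen with earlier results of these data known. Of the 32 members 2 are not reported here by name or value and are left out of the figures, while counts over the members include them.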

Additional observations from a re-analysis of the deposited data

How the results depend on the processing

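Of the 30 tested members, 23 kept the direction of their log2 fold change under all 13 alternatives and 7 did not. Over all genes, DESeq2 called 144 and edgeR 0, and leaving out 1 library at a time gave 0 to 211, the 211 without ethanol 2 and 1 without control 1; of the members DESeq2 called 1, Scn4b, and every fit without 1 library called 0. The cause was not tested. Cacna1c turned to -0.064 with total counts only, -0.0735 in limma-voom and -0.0716 with the replicate block, and Cacnb3 to 0.0139 in limma-voom, 0.0009 without the count filter and 0.0127 with the replicate block. Scn11a turned to -0.019 with total counts only. Leaving out 1 library at a time gave ranges of -0.32 to 0.10 for Cacna1a, -0.17 to 0.29 for Cacna1c, -0.34 to 0.16 for Cacna1g, -0.12 to 0.36 for Cacna2d2, -0.11 to 0.20 for Cacnb3, -0.53 to 0.82 for Scn11a and -0.59 to 0.19 for Scn3a.

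The replicate numbers are not stated to pair the samples. Same-numbered samples had correlations of 0.146, -0.031 and -0.017 in their deviations from the group means, and 1 of the 3 control samples was closest to its own number. So few samples cannot decide whether a pairing by batch or cage exists. With the replicate number as a block, 0 genes and 0 members were called by edgeR. Depth limits the members with few reads, Scn4a, Scn7a, Scn10a, Scn11a, Cacna1f and Cacna1s.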
